A study of Mus musculus with 4 samples.

Results

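The mouse genes whose symbols begin with Kcn encode the pore-forming and accessory subunits of potassium channels. All protein-coding genes with such a symbol were taken, which gave 94 genes of 21832 protein-coding genes and 32564 genes of any kind in the transcript index. They comprise 15 inward rectifiers (Kcnj), 14 tandem-pore channels (K2P, Kcnk), 40 voltage-gated subunits (Kcna to Kcnd, Kcnf to Kcnh, Kcnq, Kcns, Kcnv), 8 calcium-activated or Slo-type subunits (Kcnn, Kcnma1, Kcnt, Kcnu1) and 17 accessory subunits or regulators (Kcnab, Kcne, Kcnip, Kcnmb, Kcnrg).

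The study sequenced RNA from 4 libraries, all of 1 group that the sample labels call activated neural stem cells. Untreated mice 3 months old, of a mixed CD1 and C57BL/6 background with a gfap:GFP transgene, were the source, and GFAP, Prom1 and EGFR marked the sorted cells. In this transgene a Gfap promoter drives the reporter, and Gfap is also active in other astroglia. The series' own design text differs from these labels, since it speaks of quiescent cells and of ventricular injections of aCSF or a miR204 antagomir, which no sample label names. The sample labels were followed and no conditions were compared. Whether each library is a separate animal is not stated, so SDs and p-values describe the spread between these 4 libraries, part of which may be technical.

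Depth was 16978938 to 23727664 estimated counts per library. Gfap averaged 149.5 ± 54.4 TPM, Egfr 89.7 ± 23.1 TPM and Prom1 23.1 ± 7.01 TPM (SD, n = 4). The ± is the SD everywhere below except on log2 differences from 1 TPM. There it is the standard error (SE) of the limma fit, which is smaller than the SD between libraries. TPM, the abundance unit of these files, is corrected for transcript length and for the library total. All 9 stem cell and astrocyte markers and all 7 markers of activated progenitors were above 1 TPM. So were all 7 oligodendrocyte, 7 microglial, 6 ependymal and 6 neuroblast markers, 7 of 8 neuronal markers and 4 of 5 oligodendrocyte precursor markers. By the same test, described below, 71.6% of protein-coding genes with a count were above 1 TPM. These counts alone therefore say little about which cells were present. Of 8 endothelial and mural markers 3 were above 1 TPM, Pdgfrb, Acta2 and Pecam1, and Cdh5 and Vtn had no count. In such bulk samples, fewer cells of a type and less RNA per cell cannot be told apart.

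Potassium channels let potassium ions leave the cell down their gradient and so set the resting potential. Inward rectifiers and tandem-pore channels conduct at rest, voltage-gated channels open on depolarization, and calcium-activated channels open when calcium rises inside the cell. In glia of the brain, Kcnj10 is the channel best known for clearing potassium from the space around neurons. Accessory subunits form no pore and change how, when or where the pore-forming subunits work.

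The coding sequence of the pore is what unites the pore-forming genes and separates them from the accessory ones. A signature of 5 codons, for threonine or serine, any residue, glycine, tyrosine or phenylalanine, and glycine, encodes the selectivity filter through which potassium passes. It was searched in the coding frame of the longest complete coding sequence per gene. It was found in 77 of 77 pore-forming Kcn genes and in 0 of 17 accessory Kcn genes, against 495 of 21467 other coding genes (2.31%). A match is a description of the letters and not by itself a pore. The stretches below are 45 bases of coding sequence, 5′ to 3′ on the coding strand, from the GENCODE M21 transcripts of GRCm38, with the signature codons in capitals. They are shown for the leading tandem-pore genes, for the leading voltage-gated gene and a Shaker-type gene, for a pair of lower inward rectifiers, and for SK genes of similar level.
Kcnj16, chromosome 11: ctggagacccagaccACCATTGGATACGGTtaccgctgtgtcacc
Kcnj4, chromosome 15: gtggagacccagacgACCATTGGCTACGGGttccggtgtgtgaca
Kcnk1, chromosome 8, loop A: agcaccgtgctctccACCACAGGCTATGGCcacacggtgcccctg
Kcnk1, chromosome 8, loop B: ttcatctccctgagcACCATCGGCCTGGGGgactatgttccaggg
Kcnk2, chromosome 1, loop A: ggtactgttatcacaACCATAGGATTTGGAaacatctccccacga
Kcnk2, chromosome 1, loop B: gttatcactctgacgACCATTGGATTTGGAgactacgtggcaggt
Kcnh3, chromosome 15: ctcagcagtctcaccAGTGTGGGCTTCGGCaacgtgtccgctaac
Kcna1, chromosome 6: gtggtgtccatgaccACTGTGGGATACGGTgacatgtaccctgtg
Kcnn3, chromosome 3: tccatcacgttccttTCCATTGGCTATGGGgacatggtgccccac
Kcnn1, chromosome 8: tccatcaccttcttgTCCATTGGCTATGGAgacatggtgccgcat

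The tandem-pore genes carry a pair of such loops, loop A nearer the start of the coding sequence and loop B nearer its end. In loop B of Kcnk1 the fourth codon encodes leucine, a form that the count above leaves out. Loops A and B matched at 22 of 45 bases in Kcnk1 and at 27 of 45 bases in Kcnk2. Kcnj16 and Kcnj4 matched at 37 of 45 bases, and Kcnn3 and Kcnn1 at 39 of 45. Kcnh3 shared 24 of 45 bases with Kcna1 of its own class and 21 of 45 with the inward rectifier Kcnj16.

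Kcn transcripts were a small share of the RNA, and a few genes held most of it. Together the 94 genes made up 0.108 ± 0.00787% of TPM, with 1077.2, 966.6, 1128.2 and 1138.6 TPM in libraries 1 to 4. At or above 100 TPM there were 4 genes, Kcne1l, Kcnj10, Kcnn2 and Kcnk1. They are 4.255% of the Kcn genes, against 6.729% of all protein-coding genes at that level. At 10 TPM the shares were 21.28% of Kcn genes (20 genes) and 42.25% of protein-coding genes, and at 1 TPM they were 56.38% and 61.78%.

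**Figure D1:**
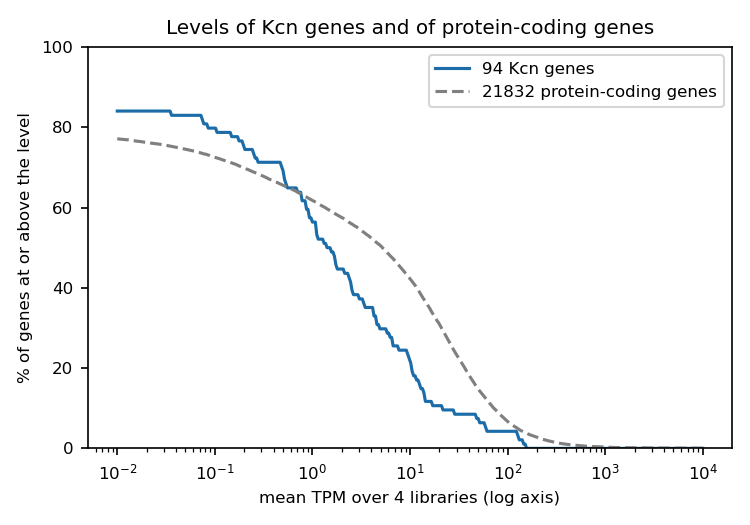
Share of genes (%) whose mean TPM over 4 libraries is at or above the level on the log x axis, for the 94 Kcn genes (solid line) and all 21832 protein-coding genes (dashed line). Above about 1 TPM the Kcn line runs below the line of all protein-coding genes, with 21.28% against 42.25% at 10 TPM.

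Each gene with a count in any library was tested for whether its mean log2(TPM + 1) differed from the value at 1 TPM (limma over 19914 genes, Benjamini-Hochberg adjusted p under 0.05, two-sided). Of the 79 Kcn genes tested, 38 were above 1 TPM, 13 were below it and 28 received no call. Over all genes tested 62.8% were called above and 23.2% below, and over protein-coding genes alone 71.6% above and 15.6% below. The remaining 15 Kcn genes (15.96%) had no count in any library, against 22.2% of all protein-coding genes. Per class, 3 of 15 inward rectifiers, 3 of 14 tandem-pore genes, 18 of 40 voltage-gated, 6 of 8 calcium-activated and 8 of 17 accessory genes were above 1 TPM. These class sizes include genes with no count. Of the genes tested, as in the shares over all genes, it was 23.08%, 27.27%, 54.55%, 75% and 57.14% in the same order.

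**Figure D2:**
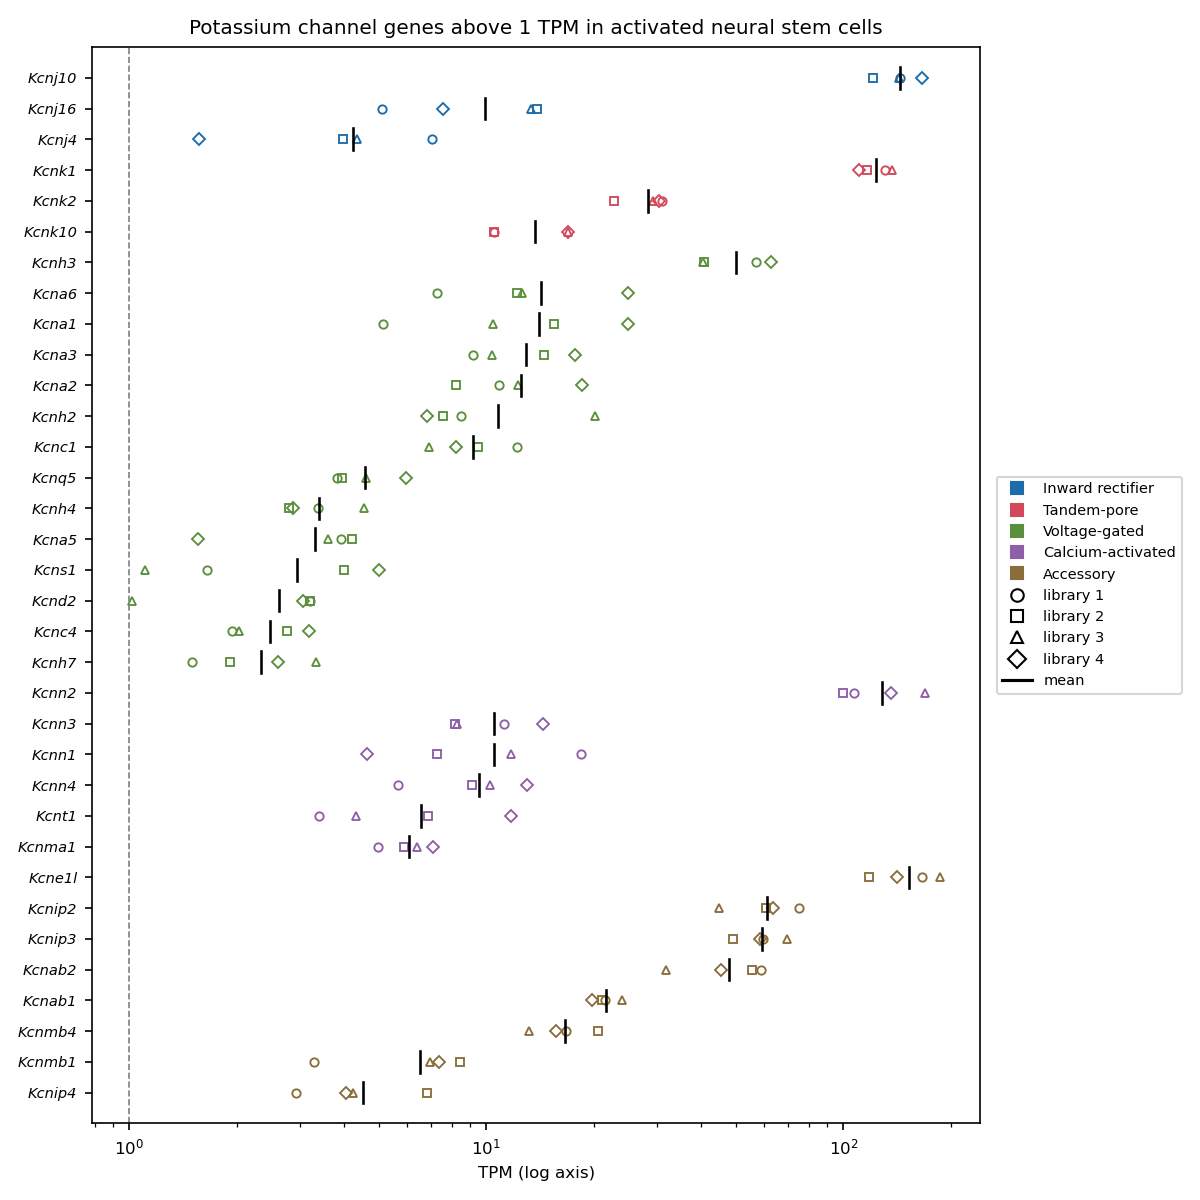
TPM on a log x axis of 34 of the 38 Kcn genes called above 1 TPM, in 4 libraries (open symbols) with the mean (black bar), coloured by class; the dashed line marks 1 TPM. Kcne1l, Kcnj10, Kcnn2 and Kcnk1 lie near or above 100 TPM in every library, and most voltage-gated genes lie between 1 and 20 TPM.

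The pore classes had sums of 163.9 to 190.6 TPM and were built differently. Summed TPM was 163.9 ± 14.7 for inward rectifiers, 175.9 ± 13.1 for tandem-pore genes, 190.6 ± 32.9 for voltage-gated genes and 172.2 ± 33.1 for calcium-activated genes. The accessory genes summed to 375.1 ± 29.6 TPM, above each pore class in 4 of 4 libraries and by 1.98- to 2.29-fold on average. Among the pore classes, voltage-gated genes summed higher than inward rectifiers in 4 of 4 libraries, by 1.15-fold, and the other pairs kept their order in 2 or 3 of 4. That order depended on the transcripts counted, since protein-coding transcripts alone gave 163.8 TPM for voltage-gated genes and 163.6 TPM for inward rectifiers. With the most abundant transcript alone it turned, at 147.1 TPM and 162.6 TPM for the same classes, and calcium-activated genes summed to 95.96 TPM. Without length correction the order differed, since by estimated counts the inward rectifiers held 25.95% of the Kcn signal, the accessory genes 25.24% and the tandem-pore genes 11.79%, against 15.2%, 34.88% and 16.34% by TPM.

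A single gene carried most of the signal in 3 of the 4 pore classes. Kcnj10 held 87.4 ± 4.06% of inward rectifier TPM, Kcnn2 73.8 ± 4.26% of calcium-activated TPM and Kcnk1 70.3 ± 4.44% of tandem-pore TPM. Kcnh3 held only 26.3 ± 4.10% of voltage-gated TPM, the lowest leading share of the 4 pore classes. That class has 40 genes, against 8 to 15 in the other pore classes, and the shares were not adjusted for class size. The median gene gave another order. It was highest in the calcium-activated class, at 3.02 ± 0.28 log2(TPM + 1), followed by 1.68 ± 0.21 for accessory, 1.42 ± 0.25 for voltage-gated, 0.87 ± 0.27 for tandem-pore and 0.48 ± 0.37 for inward rectifier genes, against 1.27 ± 0.16 over all Kcn genes.

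**Figure D3:**
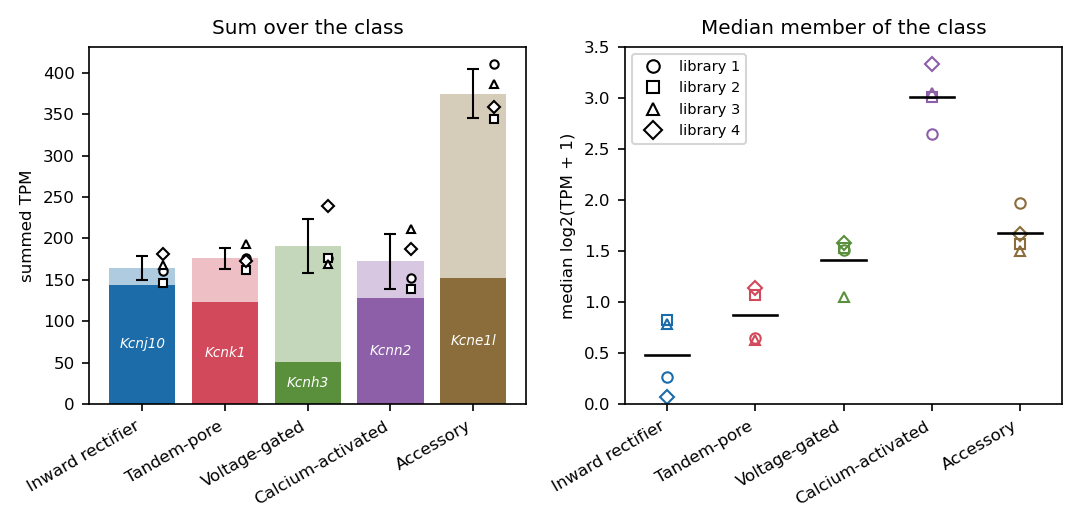
Left, summed TPM per class as the mean of 4 libraries (bars, SD as error bars, libraries as symbols), with the part of the leading gene in the full colour. Right, median log2(TPM + 1) over the genes of each class per library, with the mean as a line; the accessory class leads by sum and the calcium-activated class by median.

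Among the inward rectifiers Kcnj10 stood alone. Kcnj10, which encodes Kir4.1, lies on chromosome 1 at 172341210 to 172374085 (GRCm38). It had 144.4, 120.9, 143.1 and 165.9 TPM in libraries 1 to 4, a log2 difference from 1 TPM of 6.17 ± 0.09 (SE, limma adjusted p = 1.68e-08). Kcnj16, whose product Kir5.1 joins Kir4.1 in mixed channels, had 5.09, 13.8, 13.3 and 7.56 TPM. Every library of Kcnj10 was far above every library of Kcnj16, and the ratio of TPM + 1 was 14.0-fold, higher in 4 of 4 libraries. Folds between genes below are ratios of TPM + 1 too, which understate the difference where the lower gene is low. Kcnj16 was nonetheless above 1 TPM itself (log2 difference 2.36 ± 0.27, SE, limma adjusted p = 2.45e-04).

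Kcnj4, a strong inward rectifier (Kir2.3), was the only other one called above 1 TPM, with 7.05, 3.98, 4.36 and 1.57 TPM. Its libraries differed by 4.49-fold, and library 4 was lowest. Kcnj11, the pore of the ATP-sensitive channel, had 1.33, 1.23, 1.44 and 4.35 TPM and was not called. The classical rectifier Kcnj2 averaged 0.989 ± 0.785 TPM and Kcnj14 0.854 ± 1.22 TPM, and neither passed in either direction. Kcnj9, a G protein-gated subunit, starts on the same chromosome 11.89 kb before Kcnj10 and averaged 0.769 ± 0.65 TPM. The G protein-gated subunits Kcnj3 and Kcnj5 were below 1 TPM, as were Kcnj1 and Kcnj15. Kcnj6 and Kcnj8 had no count.

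The tandem-pore class had 3 genes above 1 TPM in a clear order. Kcnk1 (chromosome 8, 125995170 to 126030685), which encodes the background channel TWIK-1, had 131.0, 116.2, 136.6 and 110.6 TPM (log2 difference 5.96 ± 0.08, limma adjusted p = 1.30e-08). Kcnk2 (TREK-1), a channel opened by stretch and lipids, had 31.0, 22.8, 29.4 and 30.5 TPM. Kcnk10 (TREK-2), its near relative, had 10.5, 10.5, 16.9 and 16.9 TPM. No library of a lower gene reached a library of the gene before it. Kcnk1 exceeded Kcnk2 by 4.25-fold and Kcnk2 exceeded Kcnk10 by 2.04-fold, each in 4 of 4 libraries.

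Kcnk13 (THIK-1), known from microglia in mouse brain, had 0.772, 2.29, 5.29 and 8.56 TPM, with library 1 lowest and library 4 highest by 11.1-fold. It missed the threshold narrowly (log2 difference 1.11 ± 0.43, limma adjusted p = 0.0506). It was above 1 TPM under 8 alternatives, among them without library 1 (1.54, limma adjusted p = 0.0109), over protein-coding transcripts alone (adjusted p = 0.0422) and by edgeR on the counts (adjusted p = 0.000178). Summed microglial markers were 118, 282.4, 363.9 and 368.5 TPM in the same libraries, also lowest in library 1, and their part in the Kcnk13 values was not tested. Kcnk12, a subunit related to Kcnk13, averaged 1.71 ± 1.60 TPM, the acid-sensitive channel Kcnk3 (TASK-1) 1.56 ± 0.483 TPM and Kcnk6 0.916 ± 0.244 TPM, all without a call. Kcnk5 and Kcnk7 also passed in neither direction, Kcnk4 and Kcnk9 were below 1 TPM, and Kcnk15, Kcnk16 and Kcnk18 had no count.

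The voltage-gated class was led by Kcnh3, a member of the Elk group (Kv12.2) known from forebrain neurons. It lies on chromosome 15 at 99224861 to 99242817 and had 56.8, 40.7, 40.5 and 62.5 TPM (log2 difference 4.65 ± 0.13, limma adjusted p = 2.67e-07). Its relative Kcnh4 had 3.38, 2.80, 4.55 and 2.87 TPM, which put Kcnh3 11.5-fold higher by TPM + 1, in 4 of 4 libraries. Kcnh2, the Erg1 channel, had 8.48, 7.55, 20.1 and 6.83 TPM, with library 3 well above the others. Of the 8 genes of the Kcnh family 4 were above 1 TPM and 2 below.

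Shaker-type (Kcna) genes formed the next level, with means of 12.5 to 14.0 TPM. Kcna1 had 5.14, 15.5, 10.4 and 25.0 TPM, Kcna2 had 10.9, 8.24, 12.2 and 18.6 TPM, and Kcna3 had 9.18, 14.5, 10.4 and 17.7 TPM. These are delayed rectifiers, and Kcna1 and Kcna2 are known from myelinated axons. All were above 1 TPM in every library, and their order did not hold between libraries, with Kcna1 above Kcna2 in 2 of 4. Library 4 was highest for each of them. Kcna5, at 3.32 ± 1.20 TPM, was also called above 1 TPM and Kcna4, at 1.09 ± 1.04 TPM, was not. Kcna7 and Kcna10 had no count, although Kcna10 lies 68.05 kb from Kcna2 on chromosome 3.

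Kcna6 looked alike by its summed level, but kallisto's estimate gave most of that level to transcripts not annotated as protein-coding. It had 7.30, 12.2, 12.6 and 24.9 TPM, which was called above 1 TPM (log2 difference 2.81 ± 0.28, limma adjusted p = 1.09e-04). A transcript annotated for nonsense-mediated decay, the route by which messages with a premature stop are removed, held 9.88 ± 3.96 TPM of it, and a processed transcript with no annotated coding sequence held 2.97 ± 1.80 TPM. Over protein-coding transcripts alone the log2 difference from 1 TPM was -0.10 (limma adjusted p = 0.834), so by that estimate the call ended and the direction turned. The protein-coding form had 0.00816, 1.36, 0.00108 and 4.16 TPM in libraries 1 to 4. It is 5836 bases long and the nonsense-mediated decay form 5827 bases, and how well reads separate these forms was not tested. The exons of Kcna6 share 39.6% of their bases with the antisense gene Gm26673 on the opposite strand. Whether the counting used strand is not given in the sources used here, so it is not known whether reads from the shared bases were kept apart.

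The other voltage-gated subfamilies were lower. Kcnq5, a slow channel of the KCNQ family, had 3.81, 3.95, 4.61 and 5.94 TPM, with library 4 highest, and was above 1 TPM. Kcnq3 averaged 1.10 ± 0.13 TPM without a call and Kcnq1 had no count. The fast Shaw-type gene Kcnc1 averaged 9.18 ± 2.23 TPM, of which 53.4% came from protein-coding transcripts. Of the transient A-type genes, Kcnd2 averaged 2.63 ± 1.07 TPM and was called, while Kcnd1 (2.44 ± 1.37 TPM) and Kcnd3 (1.67 ± 0.655 TPM) were not.

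The electrically silent modifier subunits, which form channels only together with others, were the lowest group. Of these 10 genes (Kcnf1, Kcng, Kcns and Kcnv) only Kcns1 was above 1 TPM, with 1.66, 3.99, 1.11 and 5.02 TPM. Kcng3, Kcng4, Kcns3 and Kcnv2 had no count, Kcng2 was below 1 TPM and the others were not called. Together the group summed to 7.72 ± 2.72 TPM of the 190.6 TPM of the class. Kcnh1, whose libraries were also uneven, had 0.863, 2.03, 0.218 and 3.77 TPM and was not called.

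Of the 8 calcium-activated or Slo-type genes, 6 were above 1 TPM. Kcnn2, the SK2 channel, led with 106.9, 100.0, 169.1 and 135.8 TPM (log2 difference 5.98 ± 0.14, limma adjusted p = 9.54e-08). The other SK genes were about 10 TPM on average. Kcnn3 had 11.2, 8.17, 8.30 and 14.5 TPM, Kcnn1 had 18.4, 7.26, 11.7 and 4.62 TPM, and Kcnn4, the intermediate-conductance channel, had 5.65, 9.14, 10.3 and 13.0 TPM. Every library of Kcnn2 was above every library of these 3 genes, by 11.2-fold over Kcnn3, 12.2-fold over Kcnn1 and 12.4-fold over Kcnn4. Among the 3 lower genes the order changed from library to library, and Kcnn1 was highest in library 1 and lowest in library 4, the reverse of Kcnn4.

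Part of the Kcnn2 level came from a transcript that retains an intron. This form held 12.2, 28.8, 34.5 and 31.8 TPM in libraries 1 to 4, against 60.4, 59.0, 96.6 and 69.6 TPM for the main protein-coding form. It was lowest in library 1. Protein-coding forms alone gave Kcnn2 93.8 TPM, which still put it first in its class.

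The large-conductance channel gene Kcnma1 was even across libraries, with 4.97, 5.90, 6.41 and 7.09 TPM. The sodium-activated channel gene Kcnt1 was uneven, with 3.40, 6.88, 4.31 and 11.7 TPM. Both were above 1 TPM. Kcnt2, with 0, 1.15, 0.731 and 0 TPM, and Kcnu1, with 1.59, 0, 0.568 and 0 TPM, were at or near 0 in some libraries and were not called. Kcnu1 encodes the sperm channel Slo3.

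**Figure D4:**
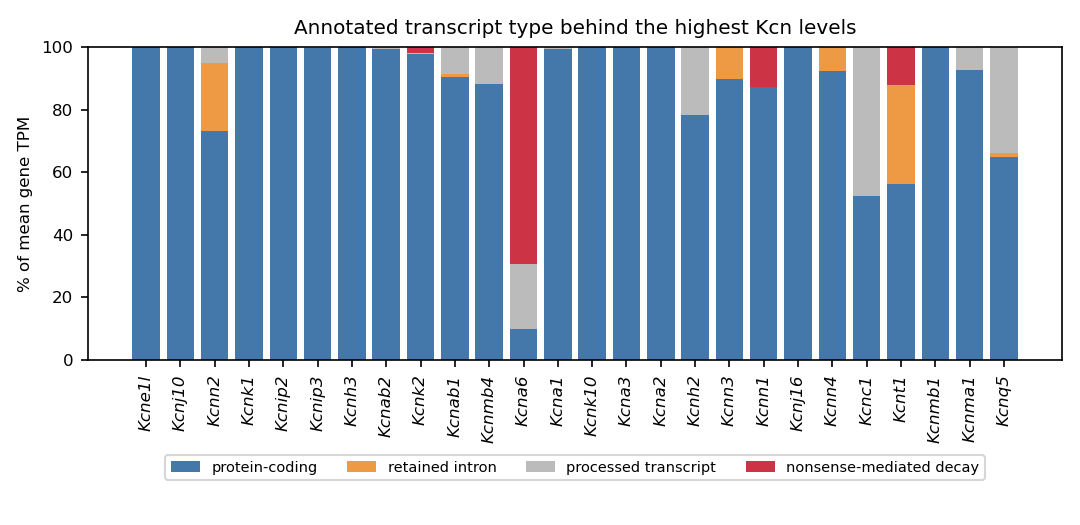
Share (%) of mean gene TPM by annotated transcript type for 26 of the Kcn genes of highest mean TPM, in falling order of level. Most bars are nearly all protein-coding, with Kcna6 led by a nonsense-mediated decay transcript and Kcnn2 carrying a retained-intron part.

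Accessory genes included the highest Kcn level of all. Kcne1l, an X-linked member of the KCNE family of single-span subunits (chromosome X, 142304752 to 142306294), had 165.4, 117.6, 186.3 and 140.8 TPM (log2 difference 6.24 ± 0.12, limma adjusted p = 4.35e-08). It held 99.8 ± 0.28% of the KCNE signal, since Kcne1 and Kcne3 had no count and Kcne2 and Kcne4 were below 1 TPM. Kcnq1, the classical partner of the family, had no count.

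The KChIP calcium-binding proteins came next. Kcnip2 had 75.2, 60.7, 44.9 and 63.3 TPM and Kcnip3 had 59.4, 49.1, 69.6 and 58.3 TPM. KChIPs bind Kcnd channels, and Kcnip3 is also known as the transcriptional repressor DREAM. The ranges of these 2 genes overlapped (ratio 1.02-fold, Kcnip2 higher in 3 of 4 libraries). Kcnip4 was lower, at 2.92, 6.81, 4.25 and 4.06 TPM, and Kcnip1 averaged 2.491 ± 1.996 TPM without a call. Kcnip2 exceeded Kcnd2, the Kcnd gene of highest mean, by 17.6-fold in TPM + 1 in 4 of 4 libraries.

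The Kcnab genes encode cytoplasmic beta subunits of Shaker-type channels. Kcnab2 had 58.8, 55.4, 31.8 and 45.5 TPM, above Kcnab1 in 4 of 4 libraries (2.11-fold). Kcnab1 was among the most even, at 21.52, 21.02, 23.96 and 19.79 TPM, and Kcnab3 averaged 1.12 ± 0.844 TPM without a call. The Kcnmb genes encode beta subunits of the large-conductance channel. Kcnmb4 had 16.8, 20.6, 13.2 and 15.7 TPM, 2.46-fold above the pore gene Kcnma1 in 4 of 4 libraries, and its exons share 20.8% of their bases with the antisense gene Kcnmb4os2. Kcnmb1 had 3.30, 8.45, 6.94 and 7.37 TPM and lies within the span of Kcnip1 on chromosome 11. Kcnmb2 was below 1 TPM and Kcnmb3 had no count. Kcnrg, known in human cells as a soluble regulator of channel assembly, averaged 1.37 ± 0.378 TPM without a call.

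The order of the leading genes was fixed only in part. Of the 19 neighbouring pairs among the 20 highest genes, 4 kept their order in 4 of 4 libraries with a mean log2 ratio larger than its SD. These were Kcnk1 over Kcnip2 (2.04-fold), Kcnab2 over Kcnk2 (1.63-fold), Kcnk2 over Kcnab1 (1.30-fold) and Kcnab1 over Kcnmb4 (1.30-fold). Within the 4 genes at the top, Kcne1l and Kcnj10 differed by 1.05-fold and changed places between libraries, as did Kcnn2 and Kcnk1 (1.02-fold). From Kcnmb4 down to Kcnn1, neighbours did not differ beyond their spread.

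Of the 15 genes with no count, the 3-count limit was between 0.0552 TPM for Kcnv2 and 0.384 TPM for Kcnq1. The limit is the level that 3 counts in a library would give, in the library where it is highest, and it covers counting error only. The 13 genes below 1 TPM rested on few counts, from a mean of 1.75 per library for Kcne4 and Kcnk4 upwards. Under edgeR's quasi-likelihood test on the counts, 2 of the 13 were called below, Kcnj5 and Kcnj15, and 42 genes were called above, the 38 among them.

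Several calls near the threshold depended on single libraries or on the transcripts counted. Of the genes above 1 TPM, 3 lost the call when a library was left out (limma, 3 libraries). Kcnd2 lost it without library 1, 2 or 4 (adjusted p = 0.0793 to 0.0982), Kcnh7 without library 2, 3 or 4 (0.0555 to 0.0898) and Kcns1 without library 1, 2 or 4 (0.056 to 0.146). Kcnh5, below 1 TPM, lost it without library 1, 2 or 3. In the other direction Kcnd1 was above 1 TPM without library 3 (adjusted p = 0.0317). Kcnh8 without library 4, Kcnj12 without library 1 or 2, Kcnj13 and Kcnt2 without library 2, Kcnj14 without library 3 and Kcnu1 without library 1 were then below it. With the most abundant transcript alone standing for the gene, Kcnh7, Kcnip4, Kcnma1, Kcnq5, Kcns1 and Kcnt1 were among those no longer called above 1 TPM. Kcns1 has 1 transcript, so its log2 difference stayed at 0.848. Only its limma adjusted p moved, from 0.0476 to 0.0525. With no filter on counts, Kcnc4, Kcnd2, Kcnh7 and Kcns1 were not called.

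Some Kcn genes differed between libraries far more than others, in 2 directions. Among genes of at least 4 TPM, those named next differed by at least 3-fold. Kcnk13, Kcna1, Kcna6 and Kcnt1 were lowest in library 1 and highest in library 4. Over protein-coding transcripts alone, Kcna6 and Kcnt1 were lowest in library 3 instead, with Kcnt1 at 2.996, 4.979, 1.545 and 5.278 TPM. Kcnj4 and Kcnn1 were lowest in library 4. The voltage-gated sum was also highest in library 4, at 176.6, 176.7, 169.2 and 239.7 TPM. Of the 38 genes above 1 TPM, 15 were highest in library 4 (39.47%, against 27.07% of all genes above 1 TPM) and 14 were lowest in library 1 (36.84%, against 31.59%).

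Markers of other cell types also differed between these libraries. Summed oligodendrocyte markers (all 7 above 1 TPM) were 2514, 3653, 3310 and 4334 TPM, lowest in library 1 and highest in library 4. Microglial markers were 118 to 368.5 TPM (all 7 above 1 TPM) with the same extremes. Neuroblast markers were 220.6 to 405.9 TPM, highest in library 1 and lowest in library 4, and neuronal markers were 1066 to 1312 TPM with library 1 highest. Ependymal markers were 598.4 to 1204 TPM and oligodendrocyte precursor markers 156.9 to 217 TPM. Endothelial and mural markers stayed within 45.3 to 55.5 TPM, with 3 of 8 above 1 TPM. Markers of activated progenitors were even, at 2226 to 2340 TPM. With 4 libraries the part of these cell types in the Kcn values was not tested.

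**Figure D5:**
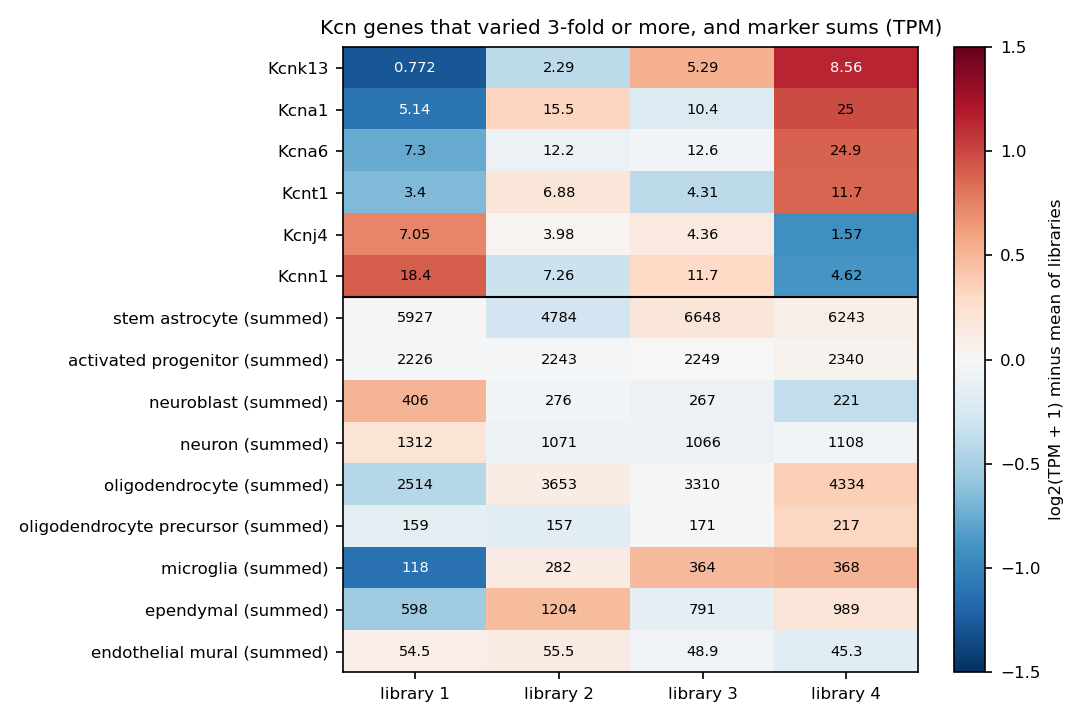
TPM (printed) of 6 Kcn genes of at least 4 TPM that differed at least 3-fold between libraries, above the line, and of summed marker lists, below it. Colour gives log2(TPM + 1) minus the mean of the 4 libraries; Kcnk13, Kcna1, Kcna6 and Kcnt1 are low in library 1 and high in library 4, and Kcnj4 and Kcnn1 are low in library 4.

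The spread between libraries was set beside that of all genes in the same range of mean TPM. Levels within a range were not matched, and the highest range has no upper limit. Between 10 and 30 TPM the median SD of log2(TPM + 1) was 0.43 over 12 Kcn genes and 0.32 over all genes, and at or above 30 TPM it was 0.30 over 8 Kcn genes and 0.21 over all genes. From 3 to 10 TPM the medians were 0.45 and 0.44, and from 1 to 3 TPM they were 0.61 and 0.58. These are descriptions, with no test.

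Shared exons limit some levels. The exons of 28 Kcn genes, 15 of them called above 1 TPM, share bases with another annotated gene, and 4 share at least 20%. Beside Kcna6 and Kcnmb4 these are Kcnj13, which shares 49.1% with Gigyf2 on the opposite strand, and Kcnj3, which shares 31.1% with Gm26794. Protein-coding transcripts held 93.1 ± 1.77% of Kcn TPM, against 89.9 ± 0.947% over all protein-coding genes.

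Genes that act beside potassium channels gave the setting. The sodium pump, which builds the potassium gradient, had 6 of 8 genes above 1 TPM, among them the beta subunit gene Atp1b2 at 298.9 ± 29.3 TPM. All 94 Kcn genes together averaged 1077.7 ± 78.7 TPM. Atp1a4 and Atp1b4 had no count. Of the cation-chloride cotransporters, 5 of 7 were above 1 TPM and 1 below, with Slc12a4 at 35.5 ± 11.3 TPM, Slc12a2 at 23.3 ± 6.30 TPM and Slc12a1 without a count. Of the hyperpolarization-activated channels, 2 of 4 were above 1 TPM, Hcn2 (31.4 ± 9.55 TPM) and Hcn3 (7.002 ± 0.641 TPM), and 2 were below.

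Of 9 genes for other partner proteins, 2 were above 1 TPM and 3 below. Amigo1, a partner of delayed rectifier channels, averaged 23.5 ± 5.88 TPM and Dpp6, a partner of Kcnd channels, 4.95 ± 1.24 TPM. The sulfonylurea receptors, which complete the ATP-sensitive channel with Kcnj11 or Kcnj8, were low. Abcc9 averaged 0.0162 ± 0.0251 TPM and was below 1 TPM, and Abcc8 averaged 0.640 ± 0.742 TPM without a call. Lrrc26, a partner of Kcnma1, had no count.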

How the data were processed

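The 4 deposited files list transcripts with estimated counts, TPM and 2 lengths. The tools named in the submitters' processing notes are kallisto and sleuth, with build mm10 and no versions. The estimated counts deposited by the authors are divided among transcripts by kallisto's estimate, so near-identical genes, or transcripts of the same gene, can share reads. The deposited TPM is scaled over every transcript of the index. Length columns were used as deposited.

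TPM and counts were summed per gene through GENCODE M21 on GRCm38, the assembly behind mm10, and 98294 of 99567 transcripts matched. The main test was limma 3.58.1 in R 4.3.3, run on log2(TPM + 1) with a mean-variance trend in a 1-group fit over 19914 genes. It asks about a level, not about a difference between conditions. The pseudocount of 1 understates differences of low genes. A count alternative used edgeR 4.0.16 on rounded counts with length offsets, its quasi-likelihood F formed from deviances. DESeq2 1.42.0 gave size factors. Only the limma test was tried on simulated counts of known level, and the edgeR alternative and the other steps were not. Spearman's rho between libraries was 0.948 to 0.960.

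Named are the 6 highest genes of each class, all calcium-activated genes, the 3 of largest SD, those with no count and those whose call changes under an alternative, and of each partner list the 2 highest and the lowest. Other values were chosen after they were seen. The genes, lists and tests were chosen with earlier results of these data known. The library kit amplifies cDNA and no molecular identifiers are named, so limits cover counting error only. Promoter sequences were not used. Some genes and a sequence that these rules select are not reported here and stay in the counts.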

Additional observations from a re-analysis of the deposited data

Results flagged for a closer look

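In 9 of 63 Kcn results tested, 1 of the 4 libraries lay far from the other 3, past Dixon's critical value for the gap over the range. For 5 of the 9, genes counted in a single library, the gap equals the whole range by construction, so they carry no information on the spread. Elsewhere chance flags about 1 in 20 such groups. The sum of the voltage-gated class was 239.7 TPM in library 4, against 169.2 to 176.7 TPM in the others. Kcnj11, the ATP-sensitive channel pore, reached 4.347 TPM in library 4 and 1.233 to 1.442 TPM in the others. Kcnh8, an Elk-type channel, had 1.76 TPM in library 4 and at most 0.1241 TPM elsewhere. Kcnd2 stood low, with 1.021 TPM in library 3 and 3.062 to 3.211 TPM in the others.

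Of the 5 genes counted in a single library, Kcne2 had 0.7011 TPM, Kcnk9 0.5903 TPM and Kcnj1 0.2914 TPM in library 2, and Kcnk4 had 0.4105 TPM and Kcne4 0.331 TPM in library 3. Each was at 0 in the other 3 libraries.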

How the results depend on the processing

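The count above 1 TPM was 31 to 43 under every alternative, and 35 to 38 with 1 library left out. The count below 1 TPM, 13 in the main test, was 5 with a minimum mean of 5 estimated counts, 27 with no filter and 2 by edgeR, which are counts set by how genes with few or no counts are treated. Of 58 genes named with a test, 24 kept their call under every alternative. Of the 38 genes above 1 TPM, 10 lost the call under some alternative, 7 of them when the most abundant transcript stood for the gene. Kcns1, which has 1 transcript and an unchanged estimate, is among these 7. Of the 58, only Kcna6 left its call and changed sign, at -0.0954 log2 from 1 TPM over protein-coding transcripts. Of the 28 genes without a call 13 gained it, and of the 13 below 11 lost it. No paired analysis was possible because the labels give 1 group.

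Rescaling TPM over nuclear protein-coding genes moved the median of all genes by 0.38 (log2). It gave sums of 220.1 TPM for inward rectifiers, 236.2 for tandem-pore, 256.4 for voltage-gated, 230.3 for calcium-activated, 504.4 for accessory and 1447 for all Kcn genes. Medians of log2(TPM + 1) were then 1.7 for voltage-gated, 3.395 for calcium-activated, 1.985 for accessory and 1.534 for all. With the most abundant transcript alone, sums were 162.6 TPM for inward rectifiers, 141.6 for tandem-pore, 147.1 for voltage-gated, 95.96 for calcium-activated, 320.2 for accessory and 867.5 for all, and medians were 1.912 for calcium-activated, 1.174 for accessory and 1.064 for all. Protein-coding transcripts alone gave 131.4 TPM for calcium-activated genes, 163.8 for voltage-gated genes and 163.6 for inward rectifiers. Over genes with a count, medians were 1.231 for tandem-pore, 1.801 for voltage-gated, 2.72 for accessory and 1.67 for all. Without length correction the shares were 25.95% for inward rectifiers, 11.79% for tandem-pore, 24.0% for voltage-gated, 13.01% for calcium-activated and 25.24% for accessory genes.

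The order of the leading genes was recomputed after the data were seen, and 4 to 6 of the 19 neighbouring pairs held in every library. Depth limits genes of a few counts, and the cause of changed calls was not tested.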
